A study of Dichotomyctere nigroviridis with 22 samples.

Results

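The genes described here serve cholesterol synthesis, sterol sensing, lipoprotein uptake and the movement of cholesterol in cells. They were chosen by symbol alone. Genes whose symbol began with a known family name of these pathways were taken, from hmgcs1 at the start of synthesis to the transporter abca1a. No measured level entered the rule, but earlier results of these data were known when the genes were chosen. The rule found 68 of the 20108 genes listed in either organ's table, with all 68 among the 19979 genes of the hypothalamus table and 66 among the 19346 genes of the ovary table. By role they were 7 genes of the mevalonate part of synthesis, 9 from squalene to cholesterol, 5 of sterol sensing, 11 lipoprotein receptors and adaptors, 9 apolipoproteins, 4 lipoprotein enzymes and transfer proteins, and 11 of cell cholesterol traffic. Another 12 genes were caught by name only and have other roles, so they were counted apart.

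RNA-seq was run on females of the green-spotted puffer, Dichotomyctere nigroviridis, a small pufferfish of wild origin, in vitellogenesis, the stage at which oocytes fill with yolk. PNX-14, a short form of the neuropeptide phoenixin, was injected into muscle at 100 ng per g body weight, control fish received the vehicle, and organs were taken 24 h later. Hypothalami came from 6 control and 6 PNX-14 treated fish, and ovary samples from 5 control and 5 treated fish. The vehicle was sterile water in the study's methods and saline in the sample labels, and the methods describe ovarian biopsies where the labels give ovaries. Both organs were taken from the same 12 fish, but no source used here states that a replicate number marks one fish in both organs.

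Cells make cholesterol from acetyl-CoA, first through mevalonate to farnesyl diphosphate and then through squalene and lanosterol. The transcription factors of the SREBP family raise synthesis and uptake genes when sterols are low, with SCAP as their escort and the INSIG proteins as their anchors in the endoplasmic reticulum. An egg-laying fish loads its oocytes with vitellogenin and other lipoproteins made by the liver, which receptors of the LDL receptor family take up from the blood, while the brain makes most of its own cholesterol behind the blood-brain barrier.

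Counted reads ranged from 9140910 to 12729314 per hypothalamus and from 11756975 to 15735216 per ovary. Levels below are CPM, the counts scaled to library size, on one scale over all 22 libraries, and FPKM, which also divides by gene length, is used wherever genes are compared with each other. The summed level of 5 neuron markers was 1642 to 2553 CPM in hypothalami and 11.4 to 21.5 CPM in ovaries, and that of 6 oocyte and egg coat markers was 17420 to 32968 CPM in ovaries. Hypothalami carried egg coat transcripts as well. The summed level of zpax1, zp2l2 and zp3f.1 stood at 7.48% to 15.6% of the ovary mean in 5 of them (control replicates 1, 2 and 5, treated replicates 3 and 4) and at 0.247% to 2.87% in the other 7. Where a call of a gene described below was lost without these 5 libraries, both values are given. In such bulk samples, fewer cells of a type and less RNA per cell cannot be told apart.

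The organs differed far more than the treatments. In control fish, 61 of the 68 genes could be tested between organs, and 22 were higher and 30 lower in ovary than in hypothalamus by edgeR's quasi-likelihood test with Benjamini-Hochberg adjustment over all genes. These 52 genes were 85.2% of those tested. Over all 17606 genes tested, 83.3% passed the same threshold, 39.7% higher and 43.6% lower, so the count for these genes lay close to the background. The comparison in PNX-14 treated fish used other libraries but shared the gene filter, the scaling and the estimate of spread with the control comparison. There, 24 genes were higher and 27 lower (83.6%), beside 84.3% over all genes, 39.9% higher and 44.4% lower. In all, 46 genes passed in both with the same direction, none passed in opposite directions, and 58 of the 61 had the same sign. This agreement was not counted over all genes, most of which passed in each comparison, so it shows no trait particular to these genes. The median log2 difference was -0.47 over these genes and -0.14 over all genes in control fish, and -0.24 and -0.16 in treated fish. Scaling by relative log expression (RLE) moved the median over all genes to -0.29 and -0.31. Then 19 genes were higher and 33 lower in control fish, and 14672 of all 17606 genes were called. Requiring 10 counts in every library changed the scale as well, with a median shift of -0.34 in both comparisons over the 12669 genes still tested, so that small differences above 0 lost their calls.

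**Figure D1:**
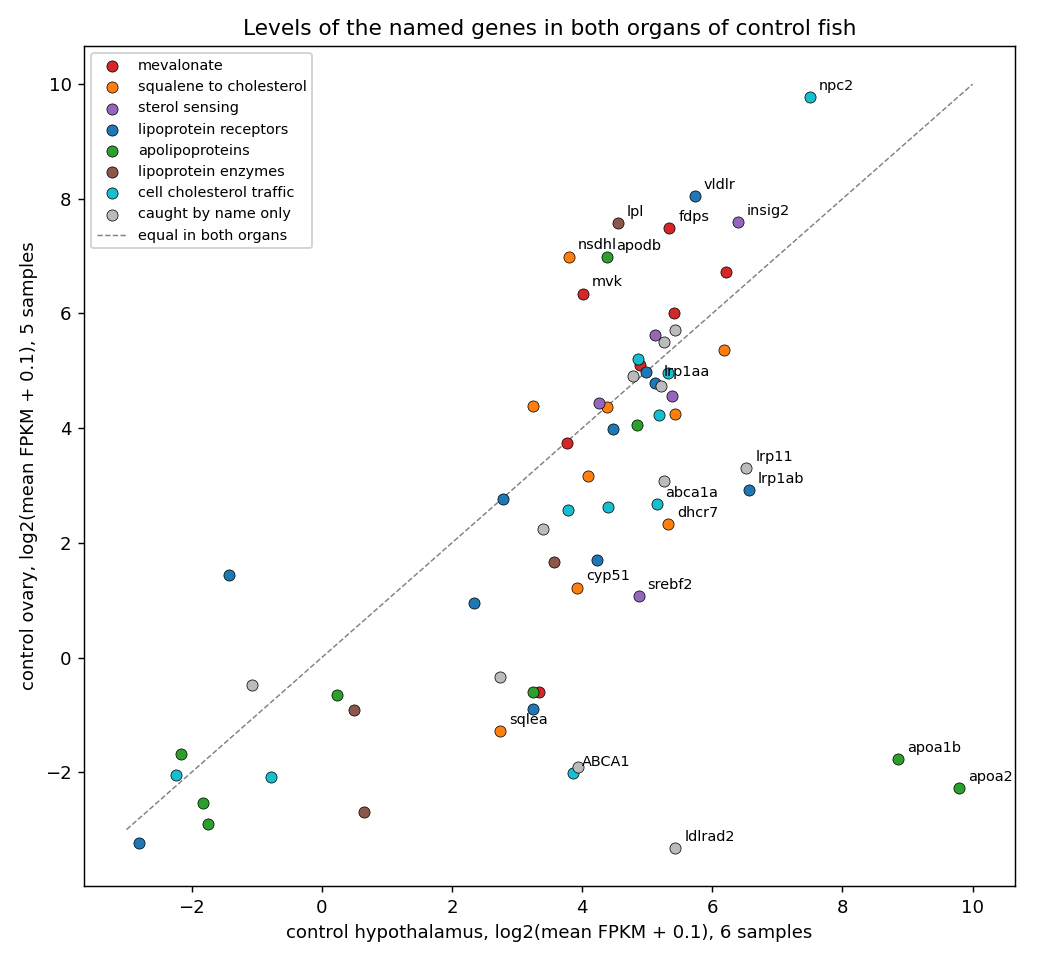
Mean level of the 66 genes listed in both tables in control hypothalami (x axis) and control ovaries (y axis), as log2(FPKM + 0.1), one point per gene coloured by role. The dashed line marks equal FPKM, which lacks the scaling used in the tests between organs, so genes near the line can differ in sign from those tests. npc2 stands highest in ovary (876 FPKM), and apoa2 and apoa1b lie far to the lower right, at 889 and 464 FPKM in hypothalamus and below 0.2 FPKM in ovary.

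In the mevalonate part, 5 of 7 genes were higher in ovary, 1 was lower and mvda did not pass the test in control fish. Mevalonate kinase (mvk, ENSTNIG00000015888, chromosome 12, 6280833 to 6283905) and farnesyl diphosphate synthase (fdps, ENSTNIG00000018318, chromosome 8, 8197252 to 8199627) had the widest gaps. For mvk, control hypothalami lay between 11.3 and 25.7 CPM (median 15.8) and treated ones between 11.4 and 22.5 CPM (median 12.8). Control ovaries 1, 2, 3, 5 and 6 were at 113, 115, 126, 99.6 and 106 CPM, and treated ovaries 2 to 6 at 147, 112, 97.2, 91.0 and 117 CPM. All 10 ovaries thus stood above all 12 hypothalami, and control and treated samples overlapped in both organs. The log2 difference of mvk was 2.71 in control fish (SE 0.21, adjusted p = 3.69e-11, edgeR) and 2.92 in treated fish.

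Levels of fdps ran from 23.4 to 62.2 CPM (median 34.8) in control and from 23.6 to 36.4 CPM (median 31.1) in treated hypothalami. Control ovaries were at 195, 248, 248, 174 and 255 CPM and treated ovaries at 307, 218, 188, 195 and 200 CPM. The ovaries were again all above the hypothalami, with treated ovary 2 the highest, and the log2 difference was 2.51 (SE 0.20, adjusted p = 7.11e-11, edgeR) in control and 2.84 in treated fish. Smaller differences of the same sign were seen for hmgcs1, the HMG-CoA synthase of the cytosol (0.96 and 1.41 in control and treated fish), and the isomerase gene idi1 (0.88 and 0.85), each called in both. For mvda, the decarboxylase gene, the log2 difference was 0.31 in control fish (adjusted p = 0.124, edgeR) and 0.66 in treated fish (adjusted p = 0.00253), where the call was lost under a count minimum of 10 (0.32, adjusted p = 0.111).

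**Figure D2:**
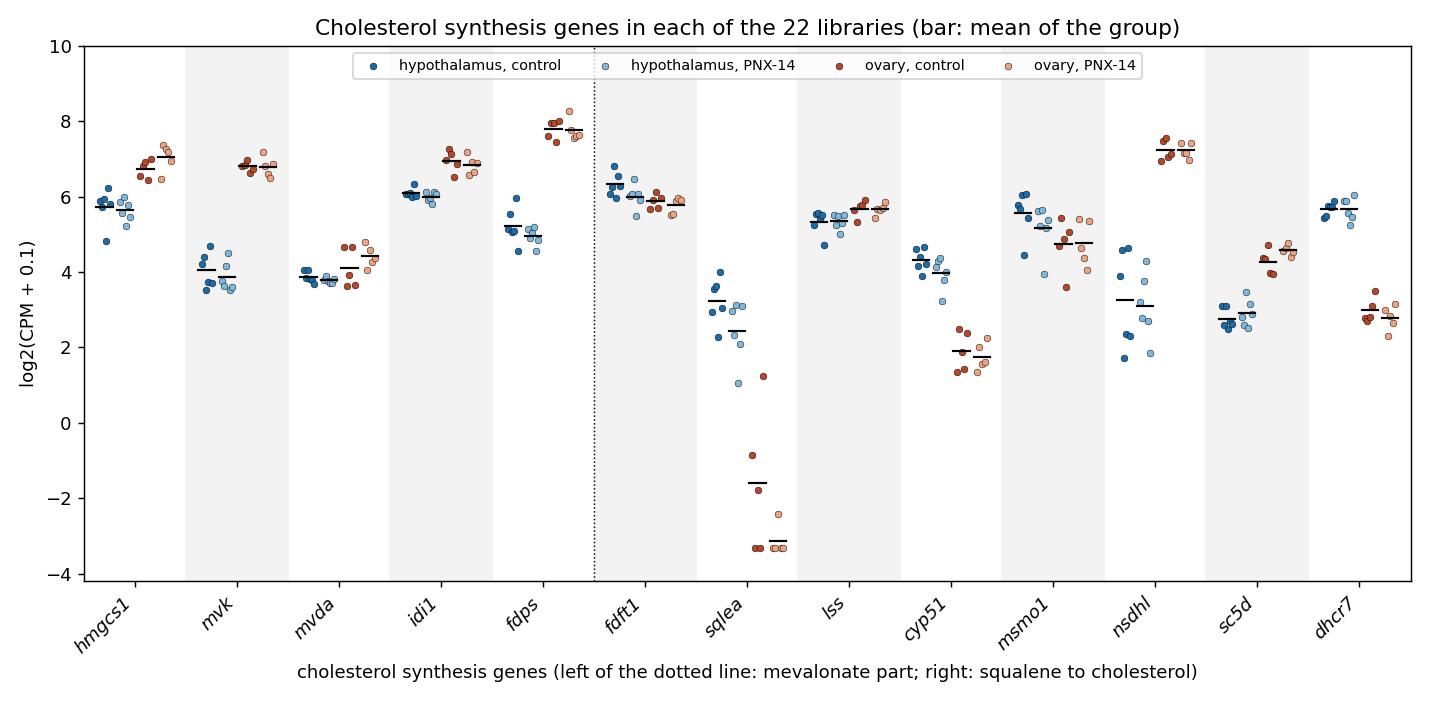
The 13 cholesterol synthesis genes described here, in pathway order along the x axis, with log2(CPM + 0.1) of each library as a point (blue hypothalamus, red ovary, lighter shade PNX-14) and the group mean of these values as a bar. Ovaries stand above hypothalami for hmgcs1, mvk, idi1, fdps, nsdhl and sc5d and below them for cyp51 and dhcr7. The level of sqlea reaches 0 in 6 of the 10 ovaries.

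From squalene to cholesterol, 3 of 9 genes were higher in ovary and 5 lower in control fish, while in treated fish 3 were higher and 4 lower. The highest in ovary per length was nsdhl (ENSTNIG00000008972, chromosome 1, 1705737 to 1707489), which encodes a sterol dehydrogenase of the demethylation steps, at 127 ± 18.1 FPKM (SD, n = 5). It was at 3.21 to 24.6 CPM (median 9.95) in control and 3.49 to 19.7 CPM (median 7.94) in treated hypothalami. Control ovaries had 124, 179, 188, 133 and 139 CPM and treated ovaries 173, 142, 144, 125 and 173 CPM. The organs did not overlap, although the hypothalami differed among themselves over a wider relative range than the ovaries. The log2 difference was 3.58 (SE 0.47, adjusted p = 4.90e-07, edgeR) in control fish and 3.94 in treated fish. Without the 5 hypothalami with egg coat levels above 5% it was 5.12 and 4.56. The desaturase gene sc5d was also higher in ovary, by 1.53 (SE 0.19, adjusted p = 1.22e-07) and 1.65.

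Squalene epoxidase, the enzyme that commits squalene to sterols, was close to the limit of detection in ovary. The counts of sqlea (ENSTNIG00000008208, chromosome 8, 1060292 to 1063144) were 84, 128, 143, 57, 224 and 114 in control and 83, 57, 101, 25, 44 and 100 in treated hypothalami. In ovaries they were 5, 0, 2, 0 and 33 in control and 0, 0, 1, 0 and 0 in treated fish. Control ovary 6 thus carried 33 of the 40 reads of its group, and treated ovaries had 1 read in all. The log2 difference in control fish was -3.97 (SE 0.69, adjusted p = 1.37e-05, edgeR), or -5.86 without control ovary 6. In treated fish 410 hypothalamus reads stood against that 1 ovary read, a ratio of 333 after division by the summed scaled library sizes, with an exact binomial 95% interval of 59.4 to 13168 that covers counting error only.

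Lower levels in ovary were also seen for cyp51, the lanosterol demethylase, and for dhcr7, which encodes the reductase of the last step of one branch. Levels of cyp51 were 14.7 to 25.1 CPM (median 19.6) in control hypothalami, and 2.45, 5.47, 3.61, 2.60 and 5.13 CPM in control ovaries. Those of dhcr7 were 43.4 to 59.2 CPM (median 52.9) and 6.81, 6.46, 6.94, 8.46 and 11.2 CPM. Neither gene overlapped between organs in any library, and the log2 differences were -2.39 (SE 0.26) and -2.67 (SE 0.19) in control fish and -2.26 and -2.91 in treated fish, all called.

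The remaining genes of this stretch differed little. For fdft1, the squalene synthase gene, the log2 difference was -0.47 (adjusted p = 0.0104, edgeR) in control and -0.25 (adjusted p = 0.151) in treated fish. For msmo1, a methyl sterol oxidase, it was -0.82 (adjusted p = 0.0286) and -0.39 (adjusted p = 0.273). The msmo1 call was lost without control hypothalamus 5 (-0.72, adjusted p = 0.0608), control ovary 1 (-0.78, 0.0565) or control ovary 5 (-0.62, 0.0826), and without the 5 hypothalami with egg coat transcripts (-0.61, 0.137). Lanosterol synthase (lss), at 0.33 and 0.32 (adjusted p = 0.0387 and 0.0428), lost its call under RLE scaling (0.17 in both) and turned to -0.02 in both under a count minimum of 10. The control value was also not called without any of control hypothalami 1, 3, 4 and 6 or control ovaries 2, 3, 5 and 6, nor the treated value without any of treated hypothalami 2, 4 and 5 or treated ovaries 3 to 6 (0.23 to 0.33). Without the 5 hypothalami rich in egg coat transcripts the treated value was 0.28 (adjusted p = 0.124).

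Of the 5 sterol sensing genes, 3 were higher in ovary and 2 lower in control fish. The transcription factor gene srebf2, which in mammals mainly drives cholesterol synthesis, was at 62.0 to 117 CPM (median 86.2) in control and 61.5 to 85.5 CPM (median 80.8) in treated hypothalami. Control ovaries were at 9.27, 6.86, 8.75, 5.39 and 8.17 CPM and treated ovaries at 6.31, 6.84, 5.39, 7.52 and 9.43 CPM. All ovaries lay below all hypothalami by a wide gap, with a log2 difference of -3.50 (SE 0.18, adjusted p = 4.49e-14, edgeR), or 11.3-fold lower, in control fish and -3.44 in treated fish.

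The related factor srebf1 was at 125 CPM (median, 115 to 146) in control hypothalami and at 98.9, 86.2, 75.1, 139 and 63.2 CPM in control ovaries. The groups overlapped, and the log2 difference was -0.47 (SE 0.17, adjusted p = 0.0131, edgeR), with the call lost without control ovary 6 (-0.35, adjusted p = 0.0684) and without the hypothalami rich in egg coat transcripts (-0.46, adjusted p = 0.0523). In treated fish it was -0.34 (adjusted p = 0.0636) and not called. Per length, srebf1 stood at 23.6 ± 8.21 FPKM (SD, n = 5) in control ovary and srebf2 at 2.00 ± 0.405 FPKM, beside 41.7 ± 3.67 and 29.1 ± 6.18 FPKM (n = 6) in control hypothalamus.

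The retention gene insig2 (chromosome 2, 21571024 to 21572441) was the most abundant of the group in both organs per length, at 192 ± 49.6 FPKM in control ovary and 83.8 ± 16.9 FPKM in control hypothalamus. Its ovary levels were 125, 228, 167, 106 and 150 CPM in control and 198, 173, 132, 131 and 171 CPM in treated fish, all above the 42.2 to 71.7 CPM of the hypothalami. The log2 difference was 1.57 (SE 0.17, adjusted p = 1.83e-08, edgeR) in control fish, and the treated ovaries were 2.83-fold higher. Its paralog insig1 differed by 0.88 (SE 0.31) and 1.11, and was not called in control fish without control ovary 3 (0.64, adjusted p = 0.0732) or under a count minimum of 10 (0.53, adjusted p = 0.118). For scap the differences were 0.54 and 0.39, with no call in either under that minimum (0.20 and 0.05) and none in treated fish under RLE scaling (0.24, adjusted p = 0.102).

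Of the genes found by symbol, nsdhl, mvk and vldlr alone were higher in every hypothalamus above 5% egg coat level than in all others. These genes were all higher in ovary, and the share of all genes with this pattern was not counted. Levels of nsdhl were 13.6 to 24.6 CPM in the 5 hypothalami with egg coat levels above 5% of the ovary mean and 3.21 to 9.08 CPM in the other 7. For mvk these ranges were 17.7 to 25.7 and 11.3 to 13.4 CPM, and for vldlr 122 to 181 and 60.9 to 84.7 CPM. For npc2 they were 109 to 211 and 59.7 to 123 CPM and overlapped, as did those of cyp51 (9.23 to 25.1 and 13.8 to 21.0 CPM) and srebf2 (61.5 to 117 and 75.0 to 87.1 CPM). Other genes higher in ovary overlapped too, such as lpl (27.1 to 37.2 and 16.2 to 40.3 CPM) and insig2 (50.2 to 71.7 and 42.2 to 67.2 CPM). Without these 5 libraries the log2 differences between organs in control fish were 3.16 for mvk, 2.88 for fdps, 3.22 for vldlr, 3.34 for npc2 and 3.59 for apodb, each larger than with them and each called. How many other genes changed in this way was not counted. The part of ovary transcripts in the hypothalamus levels was not tested.

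**Figure D3:**
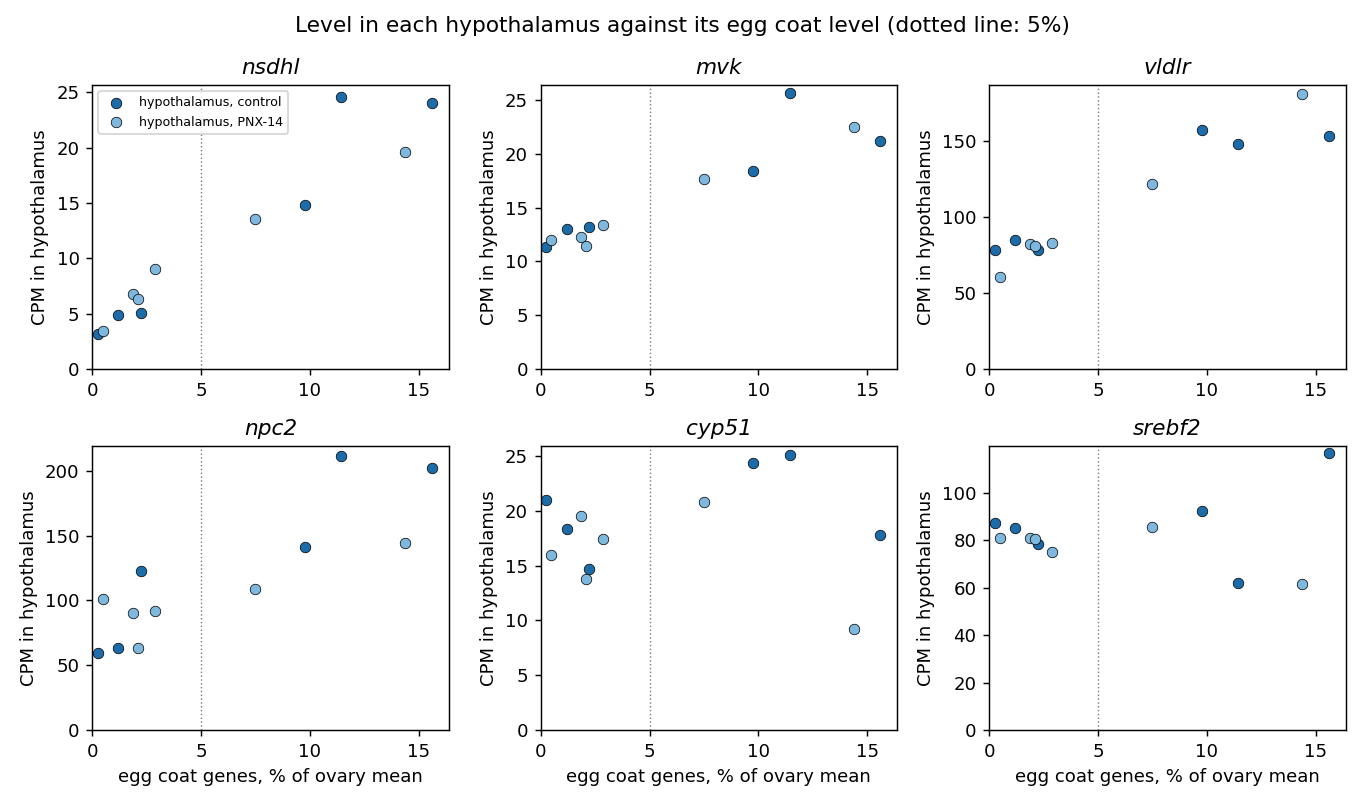
Level (CPM, y axis) of 6 genes in each of the 12 hypothalami against the summed level of zpax1, zp2l2 and zp3f.1 as percent of the ovary mean (x axis), with the dotted line at 5%. The 5 libraries to the right of the line hold the highest levels of nsdhl, mvk and vldlr, while those of cyp51 and srebf2 span the range of the rest.

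Of the 10 lipoprotein receptors and adaptors tested, 3 were higher and 4 lower in ovary in control fish, and 4 and 4 in treated fish. The very low-density lipoprotein receptor gene vldlr (ENSTNIG00000010322), whose product takes up vitellogenin in fish oocytes, was the most abundant of the group in ovary, at 265 ± 85.2 FPKM (SD, n = 5). Hypothalami had 78.4 to 157 CPM (median 116) in control and 60.9 to 181 CPM (median 82.5) in treated fish. Control ovaries had 731, 751, 770, 1073 and 429 CPM and treated ovaries 670, 683, 719, 858 and 589 CPM. Every ovary exceeded every hypothalamus, with control ovary 6 the lowest and control ovary 5 the highest, and the log2 difference was 2.69 (SE 0.27, adjusted p = 4.35e-09, edgeR) and 2.79. The adaptor gene ldlrap1a differed by 3.57 and 4.22 at low levels (0.994 to 3.88 CPM in control ovaries, 0 to 0.375 CPM in hypothalami). Its paralog ldlrap1b differed by 0.35 and 0.47, neither called under RLE scaling (0.20 and 0.32) or a count minimum of 10 (0.01 and 0.13), and the first also not without any of control hypothalami 2 to 5 or control ovaries 2, 3 and 6 (0.22 to 0.34), nor without the 5 hypothalami rich in egg coat transcripts (0.36, adjusted p = 0.114).

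The low-density lipoprotein receptor gene ldlrb was at 26.0, 15.2, 12.7, 29.3 and 14.3 CPM in control ovaries, overlapping the 7.51 to 21.6 CPM of control hypothalami. Its log2 difference was 0.33 (95% interval -0.22 to 0.88, adjusted p = 0.249, edgeR) in control and 0.79 (adjusted p = 0.00895) in treated fish, the latter not called under a count minimum of 10 (0.44, adjusted p = 0.127). The change of this difference with treatment did not pass the test (0.46, adjusted p = 0.945).

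Large scavenger-type receptors of the family were lower in ovary or did not differ. lrp1ab (chromosome 9, 4018179 to 4064858) was at 431 to 973 CPM (median 817) in control hypothalami and 98.0, 47.4, 54.5, 134 and 56.0 CPM in control ovaries. The organs did not overlap, and the log2 difference was -3.31 (SE 0.27, adjusted p = 1.06e-10, edgeR) and -3.18. Its paralog lrp1aa (chromosome 11, 7598882 to 7642680) was at 286 to 503 CPM in control hypothalami and 422, 321, 445, 376 and 574 CPM in control ovaries, with a difference of 0.01 (95% interval -0.33 to 0.36). lrp1bb differed by -4.05 and -3.96 and lrp2a, the megalin gene, by -1.07 and -1.33, all called. Of the genes for the apolipoprotein E receptor LRP8, ENSTNIG00000018095 on chromosome 1 was lower in ovary (-2.21 and -1.51), whereas ENSTNIG00000007850 on chromosome 15 differed by -0.15 in both (95% interval -0.59 to 0.30 in control fish). lrp2b did not pass the filter on low counts. It had 181 reads in treated hypothalamus 6 and 71 in treated ovary 6, and at most 14 in any other library.

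Among 9 apolipoproteins, 6 were tested between organs, with 1 higher and 3 lower in ovary in control fish. apoa2 (ENSTNIG00000006405, chromosome 8, 736117 to 737673) and apoa1b (ENSTNIG00000014353, chromosome 16, 7982516 to 7984086), which encode proteins of high-density lipoprotein, were the 2 most abundant of the genes found by symbol in hypothalamus, at 889 ± 190 and 464 ± 149 FPKM (SD, n = 6). Levels of apoa2 ran from 452 to 856 CPM (median 751) in control and from 471 to 907 CPM (median 655) in treated hypothalami. Ovary libraries held 0, 0, 2, 0 and 5 reads of it in control and 5, 1, 0, 0 and 8 in treated fish. Levels of apoa1b were 401 to 872 CPM and 329 to 731 CPM in control and treated hypothalami, and none of the ovaries exceeded 0.454 CPM.

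These were the largest gaps between organs among the pathway genes, with log2 differences of -12.41 (SE 0.64) and -11.29 for apoa2 and -10.87 (SE 0.43) and -11.29 for apoa1b, all called. The apoa2 value moved to -13.59 without control ovary 6. The summed level of 7 liver markers was 118 to 269 CPM in hypothalami and 60.4 to 82.3 CPM in ovaries, led by tfa in hypothalami and by fga in ovaries, with plg below 0.3 CPM in the mean of every group. Whether other tissue adds to the hypothalamus levels was not tested. The gene apoa4a was lower in ovary as well (-3.69 and -3.53), with 3.26 to 8.58 CPM in control hypothalami and 0.277 to 0.894 CPM in control ovaries.

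The single apolipoprotein gene higher in ovary in both comparisons was apodb (chromosome 6, 6618786 to 6619779), of the lipocalin-like apolipoprotein D type, a carrier of small lipids. Control ovaries had 70.2, 104, 96.4, 72.8 and 94.7 CPM against 5.86 to 23.7 CPM in control hypothalami, with no overlap, and the log2 difference was 2.97 (SE 0.28, adjusted p = 1.39e-09, edgeR) and 2.98. apol1 differed by -0.42 (adjusted p = 0.0537) and -0.73 (adjusted p = 0.00172), and apoda.2 by -0.61 (adjusted p = 0.413) and 2.01 (adjusted p = 0.00726). APOH, apoa4b.2 and apoc2 stayed below 0.6 CPM in every library and were not tested. On chromosome 8, apoc2 (733049 to 734147), apoa2 and apoa4b.2 (752877 to 753738) lie near each other, and of these 3 genes apoa2 alone was abundant.

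Of the 4 lipoprotein enzymes and transfer proteins, 1 was higher and 3 lower in ovary in both groups. Lipoprotein lipase (lpl, ENSTNIG00000015471, chromosome 1, 15215728 to 15218975), which frees fatty acids from lipoproteins in blood, was at 16.2 to 40.3 CPM (median 31.6) in control and 27.5 to 38.5 CPM (median 31.8) in treated hypothalami. Control ovaries were at 173, 242, 361, 440 and 372 CPM and treated ovaries at 231, 274, 348, 339 and 204 CPM. The lowest ovary lay above the highest hypothalamus, and the log2 difference was 3.38 (SE 0.24, adjusted p = 8.87e-12, edgeR), or 10.4-fold, and 3.10. Hepatic lipase (lipca), the transfer protein pltp and mttp, which loads lipid onto apolipoprotein B, differed by -4.31, -1.56 and -1.23 in control and -4.07, -2.77 and -1.26 in treated fish. For lipca the control value was -6.15 without control ovary 1, which held most of its few reads in control ovaries.

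In cell cholesterol traffic, 2 of 9 tested genes were higher in ovary in both groups, while 6 were lower in control and 5 in treated fish. npc2 (ENSTNIG00000017398, chromosome 10, 5309923 to 5311668), which carries cholesterol out of the lysosome, was the most abundant of the genes found by symbol in ovary, at 876 ± 237 FPKM (SD, n = 5). It was at 59.7 to 211 CPM (median 132) in control and 63.6 to 144 CPM (median 96.6) in treated hypothalami, and at 1145, 844, 737, 896 and 546 CPM in control and 1612, 822, 1069, 722 and 1053 CPM in treated ovaries. The organs did not overlap, and the log2 difference was 2.64 (SE 0.31, adjusted p = 4.45e-08, edgeR) and 3.40. Its partner npc1, the membrane protein that receives this cholesterol, went the other way, with 58.6 to 81.1 CPM in control hypothalami, 29.7, 26.0, 22.2, 37.3 and 17.2 CPM in control ovaries and differences of -1.43 (SE 0.16) and -1.63.

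Both genes for the efflux transporter ABCA1 were lower in ovary. ABCA1 (ENSTNIG00000006354) had 67.1 to 117 CPM (median 79.8) in control hypothalami and 0.363, 0.994, 0.951, 1.49 and 1.73 CPM in control ovaries. Those of abca1a (chromosome 18, 6174928 to 6193931) were 141 to 272 CPM (median 232) and 48.6, 34.7, 43.4, 56.5 and 64.3 CPM. Neither overlapped between organs, and the log2 differences were -6.23 (SE 0.34) and -6.03 for ABCA1 and -2.13 (SE 0.19) and -2.43 for abca1a. soat1, which esterifies cholesterol for storage, was higher in ovary by 0.70 and 0.82. The high-density lipoprotein receptor gene scarb1 was lower in ovary (-0.88 and -1.52). The difference for abcg1, at or below 1.47 CPM throughout, was -1.40 (adjusted p = 0.0229, edgeR) in control fish, where the call was lost without control ovary 5 (-1.10, adjusted p = 0.0513), and 0.26 in treated fish (adjusted p = 0.647). scarb2c, of the lysosomal receptor family, was lower (-0.61 and -0.90), scarb2a differed by -0.01 (95% interval -0.33 to 0.31), and NPC1L1 and soat2 were not tested.

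**Figure D4:**
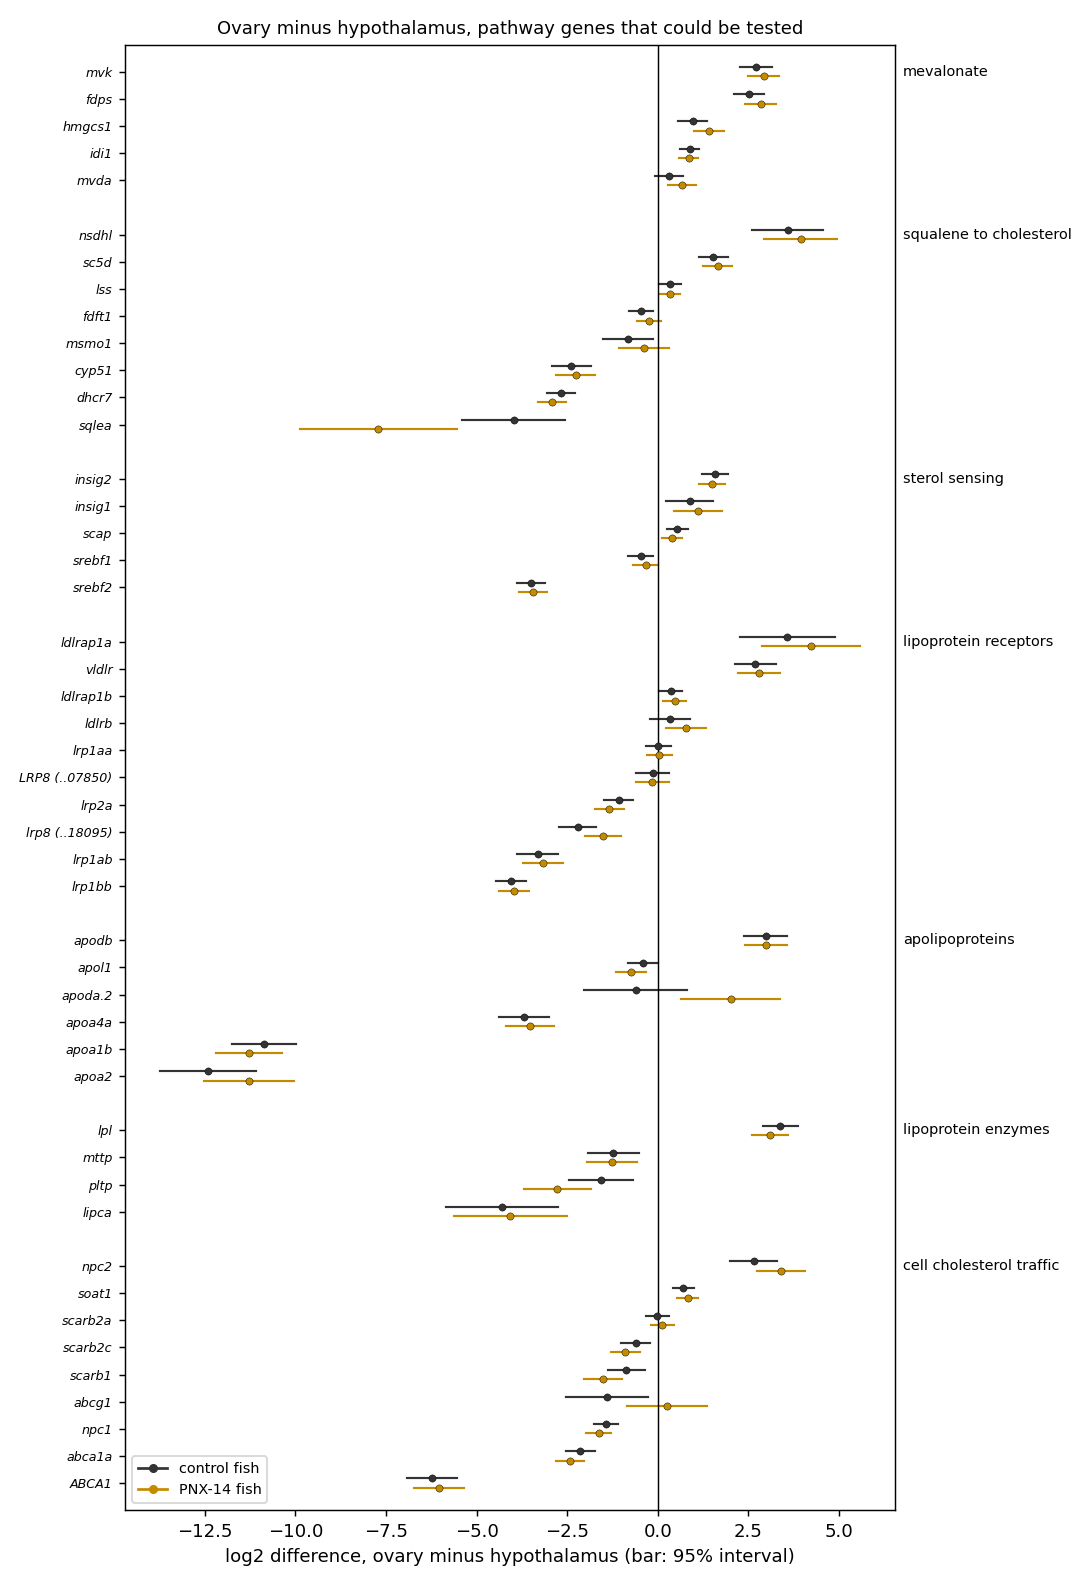
Log2 difference between ovary and hypothalamus (x axis, right of 0 higher in ovary) for pathway genes that could be tested and are reported singly, grouped by role, in control (black) and PNX-14 treated (ochre) fish; points are edgeR estimates and bars their 95% intervals. The sqlea value in treated fish rests on 1 ovary read and depends on the prior count of the fit, and apoa1b and apoa2 lie farthest to the left, at -10.87 to -12.41.

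Among the 12 genes caught by name only, 4 were higher and 6 lower in ovary in control fish. hmgcll1 was at 12.6 to 15.7 CPM in control hypothalami and at most 0.762 CPM in ovaries. ldlrad2 had 134 to 623 reads in each control hypothalamus, none in any control ovary and 2 in the treated ovaries together. lrp11 and lrp12 were lower in ovary, with log2 differences of -2.86 and -1.85 in control fish.

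PNX-14 changed none of these genes in the ovary past the adjusted threshold. Of the 68 genes, 51 passed the filter on low counts and 0 were called by edgeR's quasi-likelihood test, beside 0.0135% of all 14777 genes tested. At an unadjusted p under 0.05 the count was 0 of 51 with edgeR, where 7.99% of all genes passed. With DESeq2, which kept more genes, it was 4 of 65, and the share of all genes was not counted. The median log2 fold change was -0.04 (-0.02 over all genes), with 21 genes above 0 and 30 below, and values from -0.67 to 0.69. The 95% interval lay within -1 and 1 for 42 of the 51 genes. Control and treated ovaries overlapped for all 66 genes listed, a count that was not made over all genes.

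The smallest p in ovary belonged to scarb1, which takes up cholesterol from high-density lipoprotein, for example in steroid-producing cells of mammals. Control ovaries were at 8.54, 11.8, 12.6, 12.7 and 29.5 CPM and treated ovaries at 13.1, 9.41, 6.98, 11.4 and 8.04 CPM. Control ovary 6 stood far above the rest, and the fold change was -0.67 on the log2 scale (SE 0.32, adjusted p = 0.635, edgeR) with it and -0.26 without it. Next came ldlrad3 (0.69, SE 0.34, adjusted p = 0.651), lrp2a (-0.41, SE 0.21, adjusted p = 0.662), lrp8 (ENSTNIG00000018095, 0.50, SE 0.26, adjusted p = 0.675) and hmgcs1 (0.30, SE 0.18, adjusted p = 0.723). For vldlr the log2 fold change was -0.12 (95% interval -0.56 to 0.31), for lpl -0.22 (-0.74 to 0.30), for npc2 0.31 (-0.17 to 0.78) and for srebf2 -0.14 (-0.65 to 0.36).

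In the hypothalamus, 58 of the 68 genes passed the filter and 0 were called, beside 0% of all 17126 genes tested. At an unadjusted p under 0.05 the count was 1 of 58 with edgeR, beside 3.9% of all genes. With DESeq2 it was 2 of 67, without a count over all genes. The median log2 fold change was 0.02 (0.01 over all genes), 30 genes were above 0 and 28 below, and the interval lay within -1 and 1 for 51 of the 58. Control and treated hypothalami overlapped for all 68 genes, again without a count over all genes. The gene with the smallest p was apoa4a, of the apolipoprotein A-IV type, at 3.26 to 8.58 CPM (median 6.48) in control and 6.92 to 10.3 CPM (median 8.65) in treated fish. Its change was 0.49 on the log2 scale (SE 0.22, adjusted p = 0.979, edgeR), within overlapping groups. It was followed by scap (0.25, SE 0.12), sqlea (-0.71, SE 0.35), fdft1 (-0.29, SE 0.16) and ldlrad4b (0.21, SE 0.12), each with an adjusted p of 0.979. For srebf2 the log2 fold change was -0.14 (95% interval -0.44 to 0.15).

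The count at an unadjusted p under 0.05 moved with the choice of hypothalami. Without the 5 libraries rich in egg coat transcripts, which left 3 control and 4 treated, it was 7 of 59 genes (11.9%) beside 7.58% of all genes, with 0 past the adjusted threshold. These were lrp8 (ENSTNIG00000018095, -0.47), lrp2a (-0.35), lrp1ab (-0.32), lrp1bb (-0.30) and fdft1 (-0.37) with lower values, and apodb (0.56) and insig2 (0.33) with higher values, each with an adjusted p of 0.653. Among the 16 synthesis genes, control hypothalamus 5 had the highest level of 8 and treated hypothalamus 4 the lowest level of 8, both libraries with egg coat levels above 5% (11.4% and 14.4%). Control hypothalamus 2, with the most egg coat transcripts (15.6%), had the highest or lowest level of none of these genes. How often each library held the highest or lowest level over all genes was not counted, so these counts show no trait particular to synthesis genes. Control hypothalamus 5 and treated hypothalamus 4 also held 1979 and 1237 CPM of desmb, which was listed as a muscle marker. The other 10 hypothalami held 5.02 to 136 CPM. Ovaries held 614 to 1440 CPM of desmb, so it does not separate muscle from ovary. Of the same list, tpm2 was at 363 and 212 CPM in these libraries (158 to 373 CPM in ovaries). The other entries, ckma, desma and myl1, were at most 1.98 CPM there. The part of egg or muscle tissue in these levels was not tested.

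**Figure D5:**
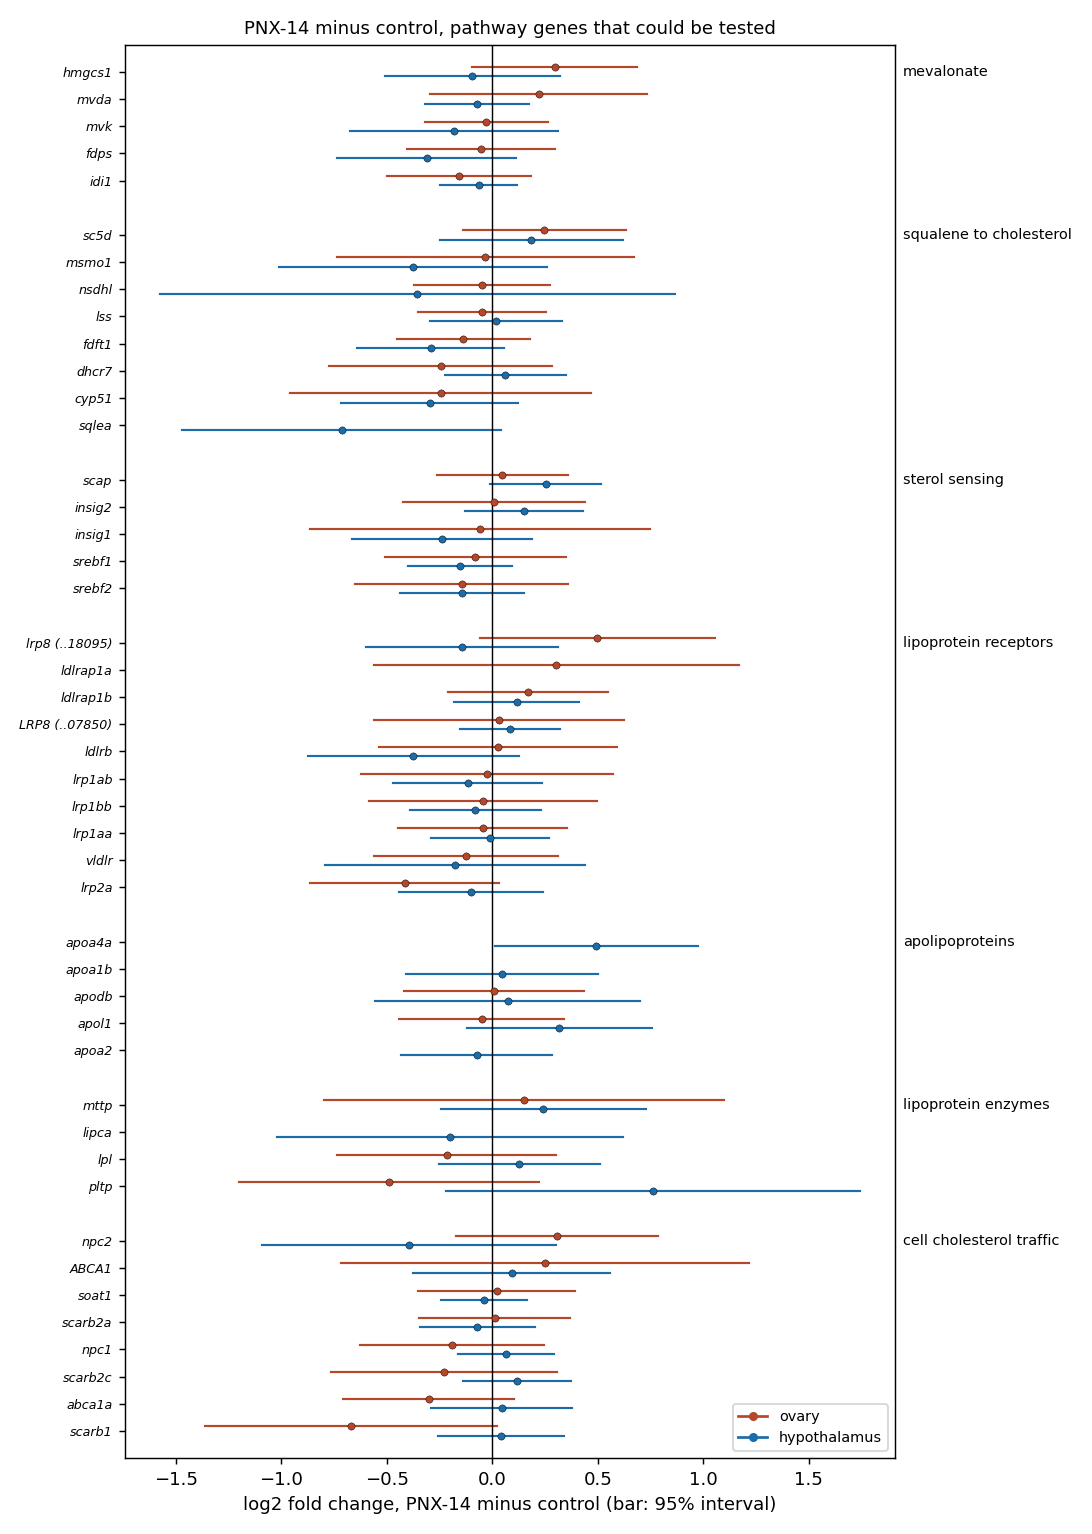
Log2 fold change with PNX-14 (x axis, right of 0 higher in treated fish) of pathway genes that could be tested and are reported singly, by role, in ovary (red) and hypothalamus (blue); points are edgeR estimates and bars their 95% intervals. All intervals drawn include 0 except that of apoa4a in hypothalamus (0.01 to 0.97), and none of the genes passed the adjusted threshold.

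The test of whether the change with PNX-14 differed between organs called 0 of 61 genes, beside 0.00568% of the 17606 genes tested. At an unadjusted p under 0.05 the count was 4 of 61 with edgeR, beside 6.26% of all genes. With DESeq2 it was 5 of 65, without a count over all genes. The smallest p was that of apoda.2, at 0.636, 0.398, 0.475, 0.743 and 0.623 CPM in control ovaries and 0.535, 3.99, 0.795, 1.29 and 4.90 CPM in treated ovaries. Treated ovaries 3 and 6 stood apart from the others, and the difference of the changes was 2.62 on the log2 scale (SE 0.96, adjusted p = 0.704, edgeR), or 0.85 without the hypothalami rich in egg coat transcripts. The others were sqlea (-3.74, adjusted p = 0.713), which rests on 1 read in the treated ovaries and moved to -1.83 without control ovary 6, abcg1 (1.67, adjusted p = 0.778) and lrp8 (ENSTNIG00000018095, 0.70, adjusted p = 0.778). For pltp, next in order, it was -1.21 (adjusted p = 0.794).

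A further 32 genes of the same pathways, outside the symbol rule, were found from a list of 35 symbols. In control fish 12 of the 27 that could be tested were higher and 11 lower in ovary (85.2%, beside 83.3% of all genes). In treated fish 10 were higher and 10 lower (74.1%, beside 84.3% of all genes). With PNX-14, 0 of 25 were called in ovary and 0 of 27 in hypothalamus. At an unadjusted p under 0.05 with edgeR the counts were 1 of 25 and 3 of 27, beside 7.99% and 3.9% of all genes. The endothelial lipase gene lipg was higher in ovary by 3.72 in control fish and nr1h3, the sterol-sensing nuclear receptor LXR alpha, by 1.32 in both groups. tm7sf2, a sterol reductase gene, was lower (-4.73 and -4.62), as was the fatty acid desaturase gene scdb (-3.55 and -4.13). Neither was the lowest of this list, where log2 differences reached -9.75 in control and -9.09 in treated fish. The gene abcg4a was at 50.2 to 83.1 CPM in control hypothalami and at most 0.182 CPM in control ovaries. The protease genes mbtps1 and mbtps2, whose products cut the SREBP proteins free, were higher in ovary by 0.48 and 0.96 in control fish.

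Some genes of these families carry no symbol in the tables and so escaped the rule. They were chosen after their values were seen, by the protein match that the tables give. ENSTNIG00000011435 (putative vitellogenin receptor, chromosome 12, 11489072 to 11494570) was at 1321, 1055, 1132, 1926 and 728 CPM in control ovaries and 7.19 to 151 CPM in control hypothalami, with a log2 difference of 3.91 (SE 0.71) and 4.23. Per length it reached 481 ± 188 FPKM (SD, n = 5) in control ovary, above the 265 FPKM of vldlr. In control hypothalami 1, 2 and 5, rich in egg coat transcripts, this gene was at 140, 137 and 151 CPM. The other control hypothalami had 7.19 to 36.6 CPM. Treated hypothalami 3 and 4, also rich in egg coat transcripts, had 90.1 and 202 CPM, and the other treated ones 14.8 to 38.9 CPM. The part of ovary transcripts in these levels was not tested. ENSTNIG00000015472 (lipoprotein lipase, next to lpl on chromosome 1) was higher in ovary by 4.46 and 4.56, and ENSTNIG00000010063 (low-density lipoprotein receptor) by 2.39 and 2.71. ENSTNIG00000001606 (very low-density lipoprotein receptor) went the other way, at -1.20 (adjusted p = 0.00210, edgeR) and -0.93 (adjusted p = 0.0123). ENSTNIG00000012312 (apolipoprotein B-100, -0.36 and 0.62) and ENSTNIG00000013608 (HMG-CoA reductase, 0.75 and 1.09) were not called. With PNX-14 in hypothalamus, ENSTNIG00000012312 changed by -0.79 (adjusted p = 0.979, edgeR).

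ENSTNIG00000010063 was at 99.5, 117, 85.1, 120 and 93.2 CPM in control ovaries and 163, 156, 124, 170 and 151 CPM in treated ovaries. All treated ovaries lay above all control ovaries, and the log2 fold change was 0.53 (SE 0.14, adjusted p = 0.562, edgeR), which did not pass the adjusted threshold. By p it ranked 39 among the 14777 genes tested in ovary. How many of all genes separate the groups in this way was not counted, and this gene was chosen after its values were seen.

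ENSTNIG00000006406 (apolipoprotein Eb, chromosome 8, 745825 to 747446) lies between apoa2 and apoa4b.2. It was at 591 to 1395 CPM in control hypothalami, and at 25.9, 73.9, 87.4, 576 and 825 CPM in control and 38.1, 36.1, 143, 155 and 99.0 CPM in treated ovaries. Control ovaries 5 and 6 stood apart from the other 8, the log2 difference between organs was -1.58 and -3.37, and that with PNX-14 in ovary was -1.79 (SE 0.91, adjusted p = 0.675, edgeR).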

How the data were processed

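Poly(A) RNA of 22 samples was sequenced from directional libraries. According to the study's methods and the submitters' processing notes, the authors trimmed reads with fastp, aligned them with HISAT2 to the TETRAODON 8.0 genome and obtained gene counts with featureCounts. Software versions and the strand setting of the counting were not stated in these sources. The authors deposited the raw counts per gene, and FPKM values (counts scaled to gene length and library size), in one table per organ. Another 22 columns of size-factor-normalised counts, and the columns holding the authors' own fold changes and p-values, were not used. Genes with near-identical copies or overlapping models may share counts.

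Counts were tested with edgeR 4.0.16 (quasi-likelihood test, robust, TMM scaling, low counts removed by filterByExpr) in R 4.3.3, with an adjusted p under 0.05 over all genes as threshold: 14777 genes in ovary and 17126 in hypothalamus, each organ fitted apart, and 17606 in one fit of all 22 samples for organ differences and the interaction. FPKM served only to compare levels between genes. Alternatives were DESeq2 1.42.0, RLE scaling, no filter, at least 10 counts in every sample, the replicate number as a block, an oocyte marker term, the hypothalami without the 5 rich in egg coat transcripts, and leaving out each sample. On simulated counts edgeR recovered 59% of 2-fold and 90% of 4-fold changes in the ovary comparison, 64% and 92% in the hypothalamus comparison, and 27% and 79% in the interaction. The changed genes were drawn from those above a minimum mean count, so these rates do not cover genes of a few reads per library. For the interaction the simulated organs started at equal levels, unlike the real ones. Replicates within a group were separate fish.

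Members and gene lists were chosen with earlier results of these data known. Named were, by rule, the first 5 genes by p of each treatment comparison and of the interaction, the called genes with the largest organ differences and the most abundant genes of each role, and a written list of pathway genes. A few genes that the rule found are counted in the totals but not reported singly here.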

Additional observations from a re-analysis of the deposited data

Results flagged for a closer look

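Of 140 groups of 5 or 6 samples checked over 35 genes, 8 held a sample far from the others. The rule flags about 1 in 20 groups of normally distributed values. Levels were not transformed here and some groups held few reads, so that rate may not hold for them. A group with reads in 1 library and 0 in the others is always flagged. Control ovary 6 stood apart for scarb1, at 29.5 CPM beside 8.54 to 12.7 CPM in the other 4, and for sqlea, at 2.29 CPM beside 0 to 0.454 CPM. In treated ovaries, replicate 2 was high for fdps (307 CPM beside 188 to 218 CPM), replicate 5 for lrp1aa (597 CPM beside 335 to 399 CPM), and replicate 4 held the only sqlea read (0.0883 CPM beside 0). In hypothalami, control replicate 6 was high for scarb1 (34.4 CPM beside 25.6 to 28.6 CPM), control replicate 2 for apoda.2 (2.83 CPM beside 0.143 to 0.896 CPM) and treated replicate 3 for lrp8 (ENSTNIG00000018095, 50.7 CPM beside 33.3 to 39.7 CPM).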

How the results depend on the processing

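With PNX-14, and for the interaction, 0 of the genes were called under every alternative run. Between organs in control fish 52 of 65 genes tested were called with DESeq2, 52 of 61 with RLE scaling and 51 of 66 without a filter. Under a count minimum of 10 it was 37 of 46, and without the 5 hypothalami rich in egg coat transcripts 47 of 63. Without any 1 library it was 48 to 51 of 61 or 62. In treated fish these counts were 50 of 65, 50 of 61, 49 of 66, 36 of 46, 49 of 63, and 48 to 52 of 61 or 62. Over all genes, the calls in control fish were 15100 with DESeq2, 14672 with RLE scaling and 15026 without a filter. They were 10443 under the count minimum and 14275 without the 5 hypothalami. In treated fish they were 15263, 14836, 15252, 10538 and 14554. The shares of all genes were not counted for these settings. The difference of lss reversed under the count minimum of 10, to -0.016 (adjusted p = 0.924, edgeR) in control and -0.021 (adjusted p = 0.895) in treated fish, a setting that shifted all genes by a median of -0.34. Replicate numbers are shared between groups, but no source says that they pair samples. Correlations of same-numbered deviations ran from -0.27 to 0.31 between control and treated hypothalami, from 0.0216 to 0.249 between the ovary groups, from -0.131 to 0.242 between organs of control fish and from 0.0797 to 0.152 between organs of treated fish, where each of the 5 numbers correlated best with its own. With the replicate block, 46 of 61 genes were called between organs in control fish and 49 of 61 in treated fish. Over all genes 14281 and 14522 were called. The block called 0 of the genes with PNX-14 in either organ and 0 in the interaction. At an unadjusted p under 0.05 the block gave 3 of 51 genes in ovary and 6 of 58 in hypothalamus. The share of all genes at that level was not counted for the block. The calls lost under the block were those of abcg1 (-1.48, adjusted p = 0.0522), abca12, apoob, ldlrad3, ldlrap1b, lrp10 and lss in control fish (adjusted p 0.0522 to 0.0893, edgeR) and of abca12 and lss in treated fish (0.0501 and 0.0723). The reads of lrp2b in treated replicate 6 stood apart in both organs (181 and 71 reads, at most 14 elsewhere). Values of a few reads per library, such as those of sqlea, lipca and apoa2 in ovary, limit the precision of their differences.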
